A study of Mus musculus with 18 samples.

Results

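The miRNAs miR-297, miR-466, miR-467 and miR-669 form a large mouse cluster within an intron of Sfmbt2. All 80 mature miRNAs with these names were examined, of 1966 listed in the mouse small RNA-seq table. The names alone defined the members. The cluster itself was chosen by measured values, because the largest excess of TIM over TI was that of miR-467a-5p, followed by miR-669c-5p and miR-467b-5p. TIM against TI is therefore given as a description without p-values, and no support is drawn from it. The AG libraries did not enter that choice, but the TI and TIM libraries did, so the comparisons with AG are not fully independent of it.

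The table holds 18 libraries of C57Bl6/N mice. Wild type adrenal glands (AG, n = 3) were labelled CRE -. TI (n = 7) are neuroblastoma tumors of mice with the R26 IGF2BP1 transgene and CRE +, of which 6 were labelled IGF2BP1 +/+ and 1 IGF2BP1 +/-. TIM (n = 8) are tumors labelled IMP1/MYCN, CRE +, which carried an IGF2BP1 and a MYCN transgene at the same Rosa26 locus. The transgenes stood behind a loxP-flanked stop cassette that iCRE removed, and Dbh, the gene of an enzyme of noradrenaline synthesis, drove iCRE in adrenal glands and peripheral nerves. The IGF2BP1 transgene lacked its 3'UTR. The labels place 1 TI and 2 TIM tumors in the adrenal gland and 1 TIM tumor along the spine. The columns of the table do not say which mouse a library came from, so libraries are numbered here by column order. Tumors were whole tissue, in which fewer cells of a type and less RNA per cell cannot be told apart.

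A miRNA hairpin is cut by Drosha and Dicer into a 5p and a 3p arm, one of which usually prevails in Argonaute. Mature miRNAs recognise targets mainly by their seed, bases 2 to 8. Sfmbt2 encodes a Polycomb group protein and is an imprinted gene, expressed from the paternal allele in early embryos and in extraembryonic tissue. The cluster in its intron arose in rodents by tandem duplication and is known for high expression in trophoblast and embryonic stem cells and for a role in placental growth.

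In RefSeq (GRCm38.p6), Sfmbt2 lies at chr2:10370440-10595253 on the plus strand. Of 82 hairpin genes with these names, 72 lay within it, between chr2:10466663 and chr2:10518279, a span of 51617 bp. In the GRCm39 annotation all 72 fell in intron 10 of the canonical transcript of 23 exons, on its strand. The 72 comprised 29 hairpins of miR-669, 24 of miR-466, 14 of miR-467 and 5 of miR-297. They were arranged in repeats, with 12 runs in the order miR-467, miR-466, miR-669. The 10 copies of Mir467a were spaced by a median of 2462 bp, with a range of 2413 to 4880 bp over 9 spacings. Mir669a had 12 copies there, Mir466b 8, Mir466c 3 and Mir669p 2. Reads of such a miRNA cannot be assigned to one copy, and the division of reads among near-identical members is uncertain, since the treatment of multi-mapping reads is not given in the sources used here.

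**Figure D1:**
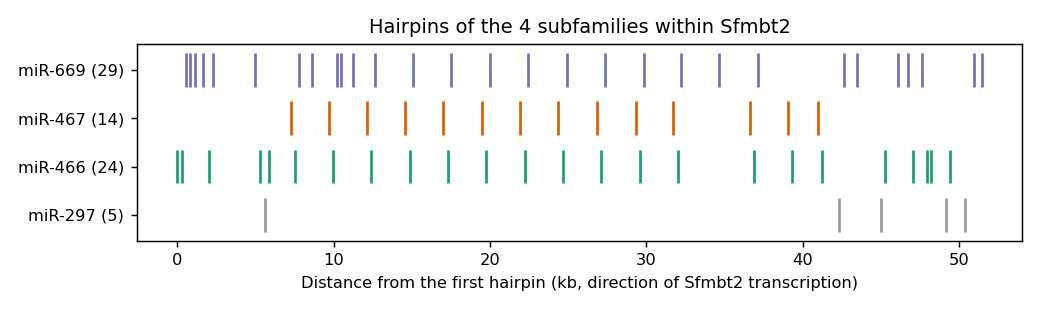
Each vertical line is 1 of the 72 hairpins within Sfmbt2, placed by its distance in kb from the first hairpin (x axis) and by subfamily (y axis, number of hairpins in brackets). The miR-467, miR-466 and miR-669 hairpins recur together across the middle of the span.

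By hairpin position, 66 members came only from Sfmbt2, 9 only from elsewhere (miR-466i-3p, miR-466i-5p, miR-466j, miR-466k, miR-466q, miR-467f, miR-467g, miR-467h and miR-669n) and 5 from both (miR-297a-3p, miR-297a-5p, miR-466f, miR-466f-3p and miR-466f-5p). By subfamily, 31 members were miR-466, 30 miR-669, 13 miR-467 and 6 miR-297. Of all 80, 33 were named as 5p arms, 35 as 3p arms and 12 without an arm. RefSeq held the mature sequence of 8 members, all of them from the group elsewhere. They are shown because they carry the family's names and its repeat-like sequence without lying at Sfmbt2. The seed is in capitals, and coordinates are those of GRCm38.p6.
miR-466q, chr3:28419988-28420007, plus strand: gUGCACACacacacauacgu
miR-466k, chr3:85467396-85467418, plus strand: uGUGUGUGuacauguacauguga
miR-466j, chr10:60960802-60960824, plus strand: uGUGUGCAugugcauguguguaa
miR-466i-3p, chr13:17747552-17747573, plus strand: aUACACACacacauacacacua
miR-467f, chr11:69635419-69635439, minus strand: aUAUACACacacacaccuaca
miR-467g, chr5:34732872-34732892, minus strand: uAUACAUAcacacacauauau
miR-467h, chr9:115381898-115381919, plus strand: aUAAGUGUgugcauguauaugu
miR-669n, chr3:115979905-115979924, plus strand: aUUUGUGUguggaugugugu

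No seed was shared among the 8. The dinucleotides UG, GU, CA and AC made up between 50% and 78.9% of the dinucleotide steps in them, against a median of 28.6% over the 1674 distinct mature sequences of the same RefSeq table. Sfmbt2 is the host gene of the members within it. The first of its 2 annotated starts lies a few bases inside the gene span given above. The 250 bases before that start are given from RefSeq (GRCm38.p6, chr2:10370201-10370450, plus strand).
Sfmbt2 upstream: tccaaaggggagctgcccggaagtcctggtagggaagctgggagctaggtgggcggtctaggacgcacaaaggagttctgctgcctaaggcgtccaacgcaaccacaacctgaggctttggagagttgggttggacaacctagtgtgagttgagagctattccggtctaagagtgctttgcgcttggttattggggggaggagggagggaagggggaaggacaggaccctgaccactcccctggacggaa
Neither promoter window of Sfmbt2 (250 bases before to 50 after the start) held the E-box letters CANNTG or, within them, CACGTG, which read the same on both strands. Of 32851 promoter windows of that length, 72.3% held CANNTG and 7.15% CACGTG. Whether the cluster is transcribed from either start in these tissues was not tested.

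Libraries held between 11641696 and 23435621 reads on miRNAs, so that 3 reads, the limit that a count of 0 allows, corresponded to between 0.101 and 0.272 CPM (counting error only). CPM here is the read count scaled to library depth and then by the trimmed mean of M-values (TMM). The library TI 5 stood apart. In it miR-148a-3p took 2.29% of the reads, against 30.1% to 61.9% in the other 6 TI libraries, 4.19% to 6.94% in AG and 6.53% to 44.2% in TIM. It also stood apart in the level of the cluster itself, given below. The fits of the cluster are given with and without TI 5, and those without it are descriptions.

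The cluster was low in 6 of 7 TI tumors, and every TIM tumor lay above these. TIM 2 and TIM 8 lay below every AG library. The summed level of the 80 members was 252, 296 and 278 CPM in AG 1 to AG 3. It was 4.46, 6.03, 7.92, 7.36, 476, 5.44 and 20.9 CPM in TI 1 to TI 7. In TIM 1 to TIM 8 it was 496, 152, 715, 356, 375, 1509, 748 and 235 CPM. The 6 low TI libraries lay below every AG and TIM library, TI 5 lay above every AG library and inside the range of TIM, and AG and TIM overlapped. The 6 low libraries still held between 60 and 302 reads of the cluster, against 8919 in TI 5, 5442 to 6350 in AG and 3370 to 32449 in TIM. In percent of all miRNA reads, which needs no TMM factor, the cluster took 0.0233% to 0.0293% in AG, 0.000312% to 0.00171% in the 6 low TI libraries, 0.0419% in TI 5 and 0.0188% to 0.279% in TIM.

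AG averaged 275 CPM ± 22.4 (SD, n = 3). TI averaged 75.5 CPM ± 177 (SD, n = 7), or 8.69 CPM ± 6.13 (SD, n = 6) without TI 5. TIM averaged 573 CPM ± 433 (SD, n = 8). AG was thus 31.7-fold above the 6 low TI libraries, and TIM 2.08-fold above AG, a difference smaller than the SD among TIM tumors. The order of the groups was TIM, AG and TI, where TIM and AG did not differ beyond their spread and TI lay lowest apart from TI 5.

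**Figure D2:**
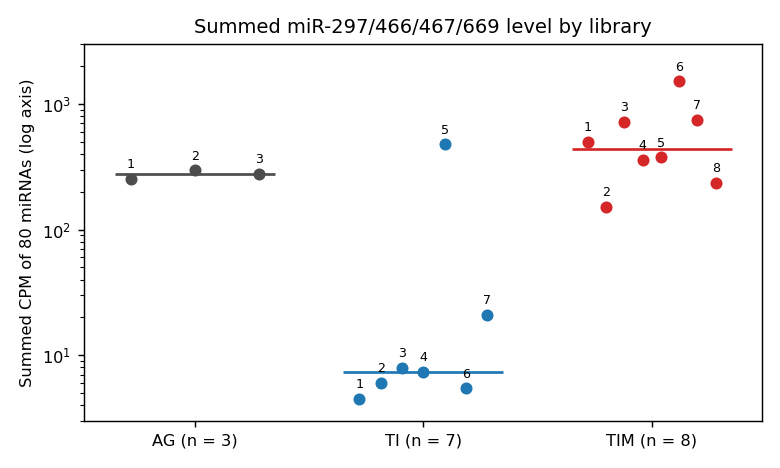
Summed level of the 80 members in CPM (log axis) for each library of AG, TI and TIM, with library numbers beside the points and horizontal lines at the group medians. TI 5, at 476 CPM, sits among the TIM libraries, while the other 6 TI libraries lie at 20.9 CPM or below.

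The 4 subfamilies shared this order of groups, and their levels differed widely. The miR-467 members summed to 189 CPM ± 20.7 in AG (SD, n = 3), 4.91 CPM ± 4.71 in the 6 low TI libraries (SD, n = 6), 282 CPM in TI 5 and 376 CPM ± 313 in TIM (SD, n = 8). The miR-669 members summed to 71.6 CPM ± 6.51, 2.37 CPM ± 0.962, 153 CPM and 158 CPM ± 93.6 in the same order. These subfamilies carried most of the reads. The miR-466 members summed to 13.2 CPM ± 1.81, 1.35 CPM ± 0.660, 35.2 CPM and 34.4 CPM ± 27.4. The miR-297 members were rarest, at 1.58 CPM ± 0.231, 0.0681 CPM ± 0.0593, 6.09 CPM and 5.18 CPM ± 4.41. AG exceeded the 6 low TI libraries 38.4-fold for miR-467, 30.2-fold for miR-669, 23.1-fold for miR-297 and 9.85-fold for miR-466. The miR-466 sum includes miR-466q, which lies outside Sfmbt2 and was not low in TI (below), so its ratio is not that of the Sfmbt2 members alone. The miR-297 ratio rests on 0 to 2 reads in each of the 6 low TI libraries.

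The members whose hairpins lay elsewhere did not share the low level in TI. The 66 members from Sfmbt2 alone summed to 274 CPM ± 22.5 in AG, 7.92 CPM ± 5.99 in the 6 low TI libraries, 472 CPM in TI 5 and 569 CPM ± 430 in TIM. The 5 members from both places summed to 0.912 CPM ± 0.209, 0.0202 CPM ± 0.0313, 3.90 CPM and 3.44 CPM ± 3.09. The 9 members from elsewhere summed to 0.0926 CPM ± 0.0801 in AG but 0.749 CPM ± 0.312 in the same 6 TI libraries, 0.534 CPM in TI 5 and 0.791 CPM ± 0.224 in TIM. In the tumors most of it was miR-466q, whose sequence is given above. It was at 0.0462, 0 and 0.0925 CPM in AG, at 0.731, 0.548, 0.264, 1.03, 0.427, 0.817 and 1.11 CPM in TI and at 0.588, 0.740, 0.826, 0.940, 0.357, 0.744, 0.628 and 0.906 CPM in TIM. TI 5 was not set apart for this miRNA, and every tumor library lay above every AG library. AG held 3 reads of miR-466q in all and TI 72, and the miRNA did not reach 1 CPM in enough libraries to be tested. The other members from elsewhere held at most 7 reads in any group, and miR-466i-5p and miR-467g held none.

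Among all 80 members, 9 had no read in any library and 39 more stayed under the filter (3 or more libraries at 1 CPM or above), with no value above 2.56 CPM. The 32 members tested came from Sfmbt2 (31) or from both places (miR-297a-3p). Most passed through AG or TIM. Of the 32, 30 reached 1 CPM in at least 3 TIM libraries, 14 in all AG libraries, 2 in at least 3 TI libraries and 13 in no AG library. Counts over the 32 are therefore tied to where members were high and are given as a description.

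miR-467a-5p was the most abundant member, with 10 hairpins in Sfmbt2. It stood at 128, 162 and 157 CPM in AG, at 0.804, 1.58, 4.31, 2.90, 213, 1.18 and 11 CPM in TI 1 to TI 7 and at 251, 61.9, 357, 104, 193, 822, 371 and 124 CPM in TIM 1 to TIM 8. TI apart from TI 5 lay below all other libraries, and AG fell within the range of TIM. It made up 51.0% to 56.6% of the cluster's reads in AG, 29.3% to 54.4% in TIM and 44.8% in TI 5. miR-669c-5p, with 1 hairpin, was second, at 32.9, 34.5 and 27.8 CPM in AG, at 1.39, 0.731, 1.06, 0.422, 68.5, 0.907 and 1.94 CPM in TI and at 104, 34.0, 76.0, 91.6, 75.5, 168, 154 and 27.7 CPM in TIM. It made up 9.98% to 13.1% of the cluster in AG and 10.6% to 25.7% in TIM. Among miR-467a-5p, miR-669c-5p and miR-669a-5p the level did not follow the number of hairpins. The division of reads among near-identical members is uncertain, so no relation of level to copy number is drawn. miR-669a-5p, with 12 hairpins, stood at 14.1, 16.5 and 13.6 CPM in AG, at 0.512, 0.548, 0.704, 0.181, 29.8, 0.635 and 1.11 CPM in TI and at 16.2, 6.26, 33.2, 15.1, 12, 62.0, 28.8 and 11.3 CPM in TIM.

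**Figure D3:**
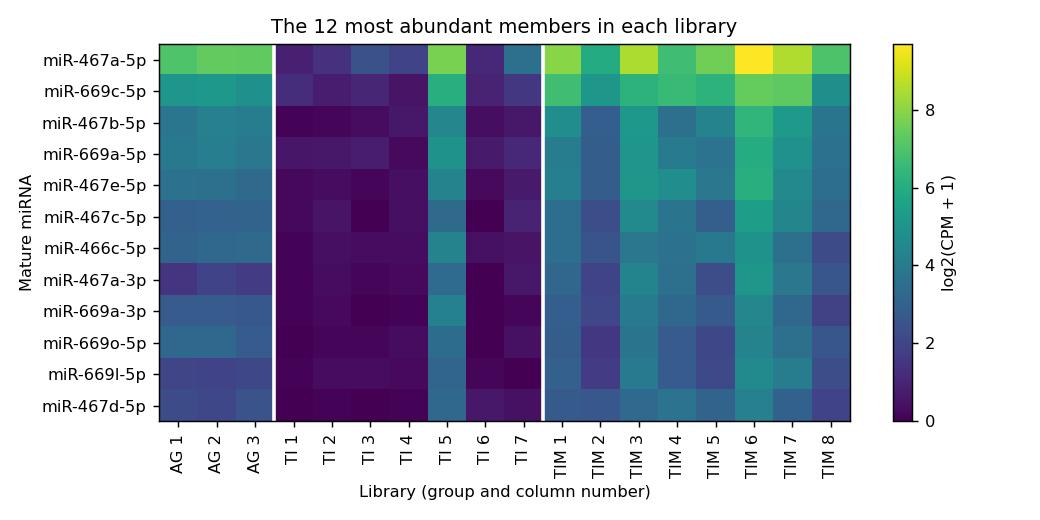
Level of the 12 most abundant members (rows) in each of the 18 libraries (columns, white lines between AG, TI and TIM), coloured by log2(CPM + 1). The column of TI 5 resembles the TIM columns, the other TI columns are dark, and miR-467a-5p is the brightest row.

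The 3 further 5p members of miR-467 that followed in abundance repeated the order of libraries. miR-467b-5p was at 12.9, 17.6 and 16.1 CPM in AG, at 0.0731, 0.122, 0.264, 0.543, 21.2, 0.272 and 0.555 CPM in TI and at 25.6, 6.49, 35.3, 10.9, 19.2, 81.0, 36.1 and 12.7 CPM in TIM. miR-467e-5p was at 11.3, 10.8 and 9.25 CPM in AG, at 0.146, 0.244, 0.0880, 0.302, 19.3, 0.181 and 0.624 CPM in TI and at 17.0, 6.19, 33.6, 25.8, 13.3, 66.2, 22.8 and 10.2 CPM in TIM. miR-467c-5p was at 6.93, 7.27 and 7.5 CPM in AG, at 0.146, 0.426, 0, 0.302, 9.19, 0 and 0.971 CPM in TI and at 10.2, 4, 23.0, 12.4, 6.70, 42.1, 20.8 and 8.57 CPM in TIM. In each of the 3, TI 5 lay above AG and the remaining TI libraries under 1 CPM.

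The rarer named members showed the same split of TI. miR-466c-5p was at 7.44, 8.30 and 9.16 CPM in AG, at 0.0731, 0.304, 0.264, 0.241, 19.1, 0.363 and 0.416 CPM in TI and at 10.3, 4.68, 13.5, 11.3, 14.2, 30.7, 11 and 3.76 CPM in TIM. miR-467a-3p, the opposite arm of miR-467a-5p, was at 1.71, 2.84 and 2.27 CPM in AG, at 0.0731, 0.244, 0.0880, 0.181, 9.51, 0 and 0.555 CPM in TI and at 8.19, 2.89, 19.6, 10.8, 3.84, 34.0, 13.4 and 5.02 CPM in TIM. For miR-467a-3p alone among the 12, every TIM library lay above every AG library. miR-669a-3p was at 5.87, 5.78 and 5.27 CPM in AG, at 0.0731, 0.183, 0, 0.0604, 17.9, 0 and 0.139 CPM in TI and at 6.35, 3.16, 14.9, 8.50, 5.76, 21.4, 8.33 and 2.72 CPM in TIM. miR-669o-5p was at 8.65, 8.30 and 6.06 CPM in AG, at 0, 0.122, 0.0880, 0.241, 9.72, 0 and 0.347 CPM in TI and at 6.27, 1.95, 12.1, 5.95, 3.26, 19.1, 10.8 and 5.02 CPM in TIM. For both, AG lay within the range of TIM, whose median was 7.34 CPM for miR-669a-3p and 6.11 CPM for miR-669o-5p. miR-669l-5p was at 3.05, 2.89 and 3.33 CPM in AG, at 0.0731, 0.244, 0.264, 0.181, 8.01, 0.0907 and 0 CPM in TI and at 6.90, 2.19, 14.3, 5.91, 3.44, 23.0, 16.0 and 4.04 CPM in TIM. miR-467d-5p was at 3.65, 3.31 and 4.53 CPM in AG, at 0, 0.0609, 0, 0.0604, 8.60, 0.544 and 0.347 CPM in TI and at 5.64, 5.25, 8.91, 12, 7.55, 17.7, 7.02 and 2.86 CPM in TIM.

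Over the 32 tested members, the 6 low TI libraries lay below every AG library for 31, against 32.4% of all 726 miRNAs tested, and TI 5 lay above every AG library for 31, against 44.5% of all. Both counts are tied to the filter and to the choice of the cluster. They are also tied to the split of TI, which was made by the level of these same members. The shares of all miRNAs are therefore no test of them. Each tested member was compared with the sum of all other members over the 18 libraries (log2 of CPM + 1). Pearson's r ranged from 0.74 for miR-466e-3p to 0.99 for miR-467b-5p, with a median of 0.88. These points share library, depth and scaling. They also pool AG, TI and TIM, so the low level in the 6 TI libraries enters each r.

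TI against AG asks how the cluster in IGF2BP1-driven tumors compared with the normal tissue. In limma on log2(CPM + 1), 13 of the 32 tested members fell in TI (Benjamini-Hochberg adjusted p under 0.05 over all 726 miRNAs tested), against 29.3% of all miRNAs tested that fell. No member rose, 0 had an unadjusted p under 0.05 in that direction, and edgeR and DESeq2 likewise called 0 higher. The median log2 fold change of the 32 was -0.69, against -0.01 for all miRNAs. miR-467a-5p fell by 4.50 on the log2 scale (SE 1.09, limma adjusted p = 0.0022), miR-669c-5p by 3.28 (SE 0.89, adjusted p = 0.0049) and miR-467b-5p by 3.08 (SE 0.80, adjusted p = 0.0037). The other 10 were miR-669a-5p (-2.69), miR-467e-5p (-2.62), miR-669o-5p (-2.47), miR-466c-5p (-2.30), miR-467c-5p (-2.27), miR-669a-3p (-2.04), miR-467d-5p (-1.62), miR-669p-5p (-1.51), miR-669e-5p (-0.95) and miR-669h-5p (-0.71). Adding 1 CPM understates the change of the rarer members. By arm, 12 of 19 tested 5p members and 1 of 13 tested 3p members fell, against the same 29.3% of all miRNAs. The 3p members were rarer, so the fewer calls do not show that they fell less. Summed over all members of an arm, AG averaged 262 CPM for 5p and 12.7 CPM for 3p. AG exceeded the 6 low TI libraries 35.8-fold for 5p and 21.0-fold for 3p, while TI 5 lay above AG for both. The 19 members not called had log2 fold changes between -1.42 and -0.03.

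TI 5 weighed on this comparison. It was set aside because its level of the cluster was high, so a deeper fall without it follows from that choice. The values without TI 5 are therefore a description and no further support. Without TI 5, 18 of 30 tested members fell in limma, 13 of them those above, against 30.8% of all miRNAs. miR-467a-5p then fell by 5.34 (SE 0.68), miR-669c-5p by 4.01 (SE 0.49) and miR-467b-5p by 3.67 (SE 0.54). With all 7 TI libraries, edgeR and DESeq2 on the recovered reads each called only miR-669h-5p lower, and miR-467a-5p had an adjusted p of 0.141 in edgeR and 0.116 in DESeq2. Without TI 5, each of these tools called 28 of 30 lower, a comparison added after the data were seen, against 27.7% of all miRNAs in edgeR and 32.2% in DESeq2. miR-669h-5p was the called member in which TI 5 was not above AG. It stood between 0.513 and 1.02 CPM in AG, at 0.267 CPM in TI 5 and at 0 in the other TI libraries.

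TIM against AG asks the same of tumors that also carry MYCN. Here 4 of the 32 tested members rose, against 25.5% of all miRNAs that rose, and none fell (0 with an unadjusted p under 0.05 in limma, edgeR or DESeq2). The 4 were all 3p arms of miR-466 or miR-467, and miR-466c-3p and miR-466e-3p, which reached 1 CPM in no AG library, passed the filter only through the tumors. miR-467a-3p rose by a log2 fold change of 1.67 (SE 0.68, limma adjusted p = 0.046), miR-466b-3p by 1.63 (SE 0.63, adjusted p = 0.039), miR-466c-3p by 1.21 (SE 0.46, adjusted p = 0.035) and miR-466e-3p by 0.69 (SE 0.25, adjusted p = 0.031). miR-466b-3p lay between 0.693 and 1.11 CPM in AG and 0.841 and 18.6 CPM in TIM, so the groups overlapped. miR-466c-3p lay between 0.0925 and 0.606 CPM in AG and 0.471 and 8.65 CPM in TIM. miR-466e-3p lay between 0.0463 and 0.140 CPM in AG and 0.202 and 2.60 CPM in TIM, without overlap, but at no more than 3 reads in an AG library.

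The abundant 5p members did not pass the test in TIM with all libraries. miR-467a-5p had a log2 fold change of 0.52 (SE 1.07, limma adjusted p = 0.71) and miR-669c-5p of 1.28 (SE 0.87, adjusted p = 0.24). By arm, 4 of 13 tested 3p members and 0 of 19 tested 5p members were called, with median log2 fold changes of 0.61 and 0.47, against 0.18 for all miRNAs and 0.54 for the 32 members. Without TI 5, as a description, the calls were no longer limited to 3p arms. Of 30 members tested, 5 then rose in limma (26.4% of all miRNAs), namely the same 4 and miR-669c-5p, with a log2 fold change of 1.28 (SE 0.47, adjusted p = 0.030). For miR-669c-5p without TI 5, the log2 fold change was 1.68 in edgeR (adjusted p = 0.018) and 1.47 in DESeq2 (adjusted p = 0.011). TI 5 was set aside for its high level of the cluster. In limma, leaving it out kept the log2 fold change of miR-669c-5p at 1.28 and lowered the SE from 0.87 to 0.47. The call of miR-669c-5p thus follows from that choice and is no further support. The 4 calls were close to the threshold, and whether any of the 4 share a mature sequence was not examined. No member was called in limma without AG 1, AG 2, AG 3 or TIM 3 (1, 4, 3 and 3 members at an unadjusted p under 0.05), and 1 was called without TIM 4, TIM 6 or TIM 7. edgeR called 1 (miR-466e-3p) and DESeq2 called 4 (miR-466a-3p, miR-466b-3p, miR-466c-3p and miR-466e-3p). TI and TIM were compared with the same 3 AG libraries, so these comparisons are not independent of each other.

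**Figure D4:**
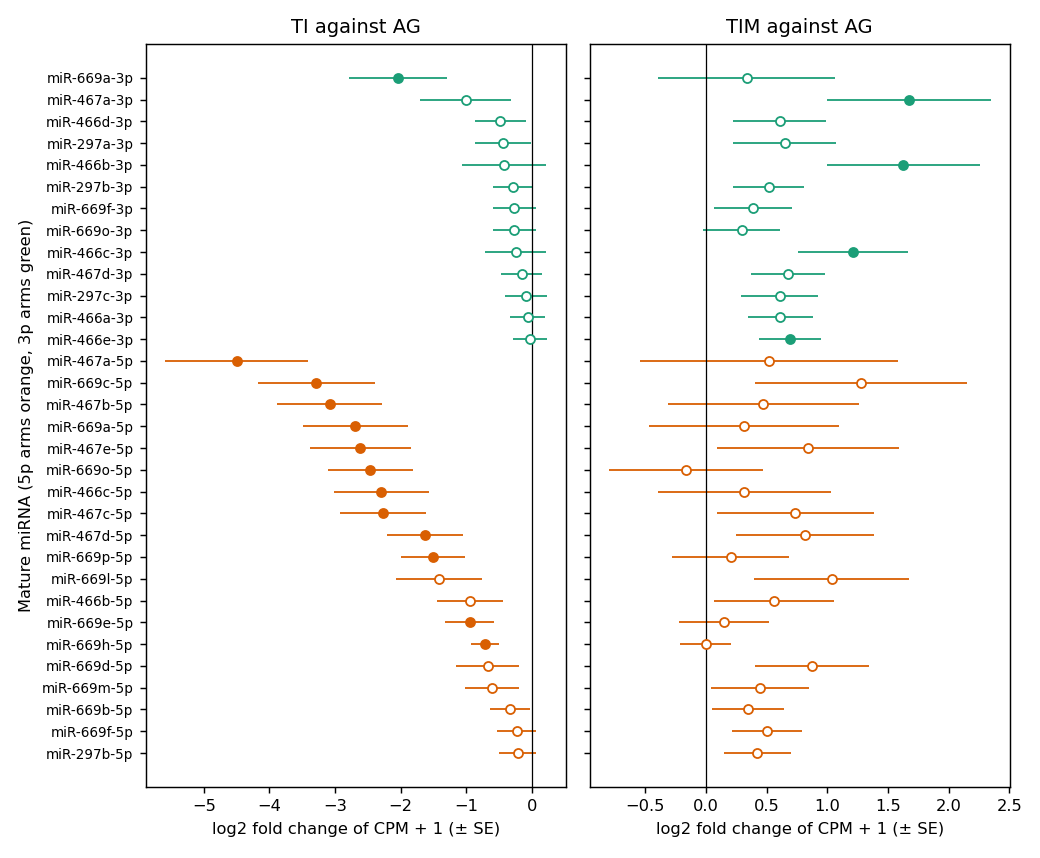
Log2 fold changes of CPM + 1 (± SE) for the 32 tested members (rows, 3p arms green above, 5p arms orange below) in TI against AG (left) and TIM against AG (right). Filled points passed an adjusted p of 0.05, which were 13 in TI and 4 in TIM with all libraries, and the x axes differ in range.

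TIM against TI used the contrast by which the cluster was chosen, so these values show how the choice came about, and nothing is read from their counts. All 32 tested members had a higher mean in TIM, with a median log2 fold change of 1.48, against 0.06 for all miRNAs. In the limma fit 23 of them passed the threshold, and 25 of all 726 miRNAs (3.44%), these members included, passed it as higher in TIM. The share of all miRNAs is thus mostly the members themselves. The log2 fold change was 5.02 (SE 0.82) for miR-467a-5p, 4.56 (SE 0.67) for miR-669c-5p and 3.56 (SE 0.60) for miR-467b-5p. The 9 members that did not pass had log2 fold changes between 0.56 and 1.09. Without TI 5 the log2 fold changes were 5.86 (SE 0.52), 5.29 (SE 0.37) and 4.14 (SE 0.42) for miR-467a-5p, miR-669c-5p and miR-467b-5p. Then 30 of 30 passed, and 35 of all 721 miRNAs (4.85%), these members included.

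The balance of the arms depends on reads of the same hairpin name within a library and is therefore free of scaling. A name with several copies, such as miR-467a, miR-466b or miR-669a, pools its hairpins. The shares also carry the uncertain division of reads among near-identical members. It was computed as the share of the 3p arm in the reads of both arms. Of 15 hairpin names with both arms and at least 10 reads in every AG and TIM library, 3 had a higher 3p share in every TIM library than in any AG library (miR-466b, miR-467a and miR-669e) and 0 a lower one. Of all 294 such hairpins, members included, 8.84% had a higher share without overlap. The 3 of 15 were not tested against that figure.

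For miR-467a the 3p share was 1.49% ± 0.21 in AG (SD, n = 3, 2815 to 3534 reads a library) and 4.44% ± 2.21 in TIM (SD, n = 8, 1847 to 18398 reads). In TI 5 it was 4.26% (95% Wilson interval 3.69% to 4.92%, 4174 reads). The other 6 TI libraries spanned 0% to 13.3% on few reads, which did not resolve a difference. For miR-466b it was 38.1% ± 2.02 in AG (38 to 67 reads) and 64.7% ± 11.1 in TIM (48 to 665 reads), and 67.6% in TI 5 (59.5% to 74.8%, 142 reads). The 3p arm of miR-466b was the more abundant in 7 of 8 TIM libraries (46.9% in TIM 5) and in 0 of 3 AG libraries. For miR-669e it was 1.67% ± 2.89 in AG (20 to 37 reads) and 18.1% ± 10.9 in TIM (10 to 101 reads), and 14.3% in TI 5 (6.72% to 27.8%, 42 reads). With at least 50 reads required in every AG and TIM library, 9 hairpins remained, of which 1 (miR-467a) had the higher share without overlap.

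Other hairpins overlapped between AG and TIM. For miR-466c the 3p share was 4.28% ± 2.83 in AG and 17.1% ± 7.67 in TIM, where TIM 5, at 3.9%, lay within AG. For miR-467d it was 6.05% ± 0.90 and 11.6% ± 5.77. For miR-669a, the most copied hairpin, it was 27.8% ± 1.77 and 28.6% ± 5.77. In TI 5 the 3p share exceeded every AG library for 6 of the 15 hairpins (miR-466b, miR-467a, miR-467d, miR-669a, miR-669e and miR-669o), against 27.2% of all 290 hairpins with enough reads in TI 5. miR-669c gave 1 read of its 3p arm in TIM 4 and 0 in the other libraries of AG and TIM, so that its 3p share was at most 0.0489%.

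**Figure D5:**
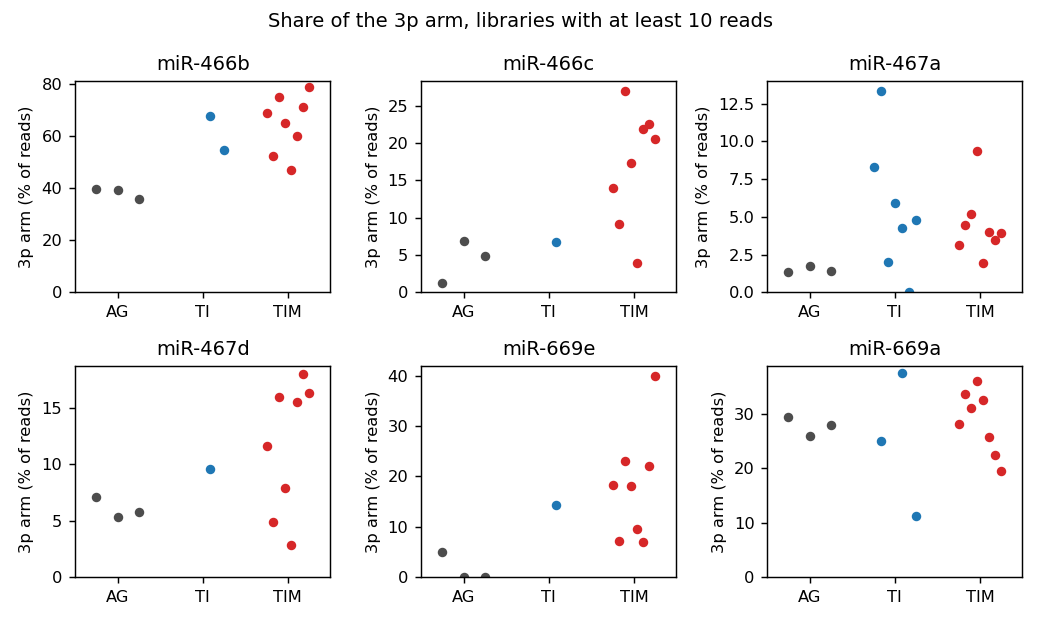
Share of the 3p arm in the reads of both arms (percent, y axes starting at 0) for 6 hairpins, 1 point per library with at least 10 reads on the hairpin. The TIM points lie above all AG points for miR-466b, miR-467a and miR-669e and overlap them for miR-466c, miR-467d and miR-669a.

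The cluster was set beside other imprinted miRNAs, a list of 17 from the Dlk1-Dio3 region and from the Gnas, Mest, Igf2 and H19 loci. Of 14 tested, 10 rose and 0 fell in TI (26.4% of all miRNAs rose), and 8 rose and 0 fell in TIM (25.5% of all). miR-370-3p, of the Dlk1-Dio3 region, ranged from 867 to 1531 CPM in AG, from 6397 to 35928 CPM in TI and from 10493 to 34675 CPM in TIM. It rose by a log2 fold change of 3.94 in TI and 3.96 in TIM (limma adjusted p = 3.3e-06 in both). Without TI 5, 10 of 13 tested rose and 0 fell in TI (29.0% of all miRNAs rose), with a log2 fold change of 3.83 for miR-370-3p (adjusted p = 6.6e-06). miR-298-5p, near Gnas, ranged from 56.7 to 118 CPM in AG, from 233 to 623 CPM in TI and from 129 to 862 CPM in TIM and rose by 1.90 in TI (adjusted p = 0.0029) and 2.56 in TIM (adjusted p = 0.00018). miR-335-5p, of Mest, rose by 1.66 in TI (adjusted p = 0.010) and had a log2 fold change of 0.64 in TIM (adjusted p = 0.29). miR-483-5p, of Igf2, was listed at 0 in the 6 low TI libraries and at 2.67 CPM in TI 5, where AG ranged from 0.277 to 1.02 CPM. In TIM its median was 0.0196 CPM and its highest value 2.28 CPM.

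Of 395 miRNAs outside the cluster with a mean of at least 10 CPM, the 5 whose log2(CPM + 1) was most like the summed level over the 18 libraries were miR-501-3p (Pearson's r 0.68), miR-532-5p (0.68), miR-1198-5p (0.65), miR-671-3p (0.61) and miR-130b-5p (0.60). miR-501-3p stood at 124 CPM in TI 5, against 33.4 to 106 CPM in the other TI libraries, and miR-532-5p at 1466 CPM against 421 to 1237 CPM. These points also share library, depth and scaling and pool AG, TI and TIM.

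Marker miRNAs of other cell types were counted in the same way in TI and in TIM, each against AG, where 29.3% of all miRNAs fell in TI and 25.9% in TIM. The 9 miRNAs of embryonic stem cells and trophoblast (miR-290 and miR-302 families), where the cluster is known to be high, summed to between 0 and 2 CPM in every library, 0.908 CPM in TI 5, and none was abundant enough to be tested.

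Of 5 neuronal and neuroendocrine miRNAs, 3 rose and 0 fell in both TI and TIM (26.4% of all miRNAs rose in TI and 25.5% in TIM). The log2 fold changes in TI and TIM were 4.86 and 4.93 for miR-124-3p, 3.82 and 4.16 for miR-9-5p and 3.57 and 3.46 for miR-9-3p. The summed level of the 5, carried mostly by miR-7a-5p and miR-375-3p, was 250127 CPM in TI 5, against 32455 to 156079 CPM in the other TI libraries, 45276 to 108209 CPM in AG and 43452 to 247618 CPM in TIM. miR-7a-5p had log2 fold changes of -0.09 in TI (limma adjusted p = 0.92) and 0.39 in TIM (adjusted p = 0.63), and miR-375-3p of -1.75 (adjusted p = 0.20) and -2.27 (adjusted p = 0.094).

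Of 4 smooth muscle and fibroblast miRNAs, 3 fell in TI and 3 in TIM. They summed to 171354 CPM in TI 5, against 15888 to 87967 CPM in the other TI libraries, 122810 to 209646 CPM in AG and 16118 to 101305 CPM in TIM. Both endothelial miRNAs fell in TI and in TIM, with sums of 6736 CPM in TI 5, 1704 to 5226 CPM in the other TI libraries, 2428 to 8943 CPM in TIM and 38529 to 46092 CPM in AG. The hepatocyte miRNA miR-122-5p fell in both, from between 780 and 2592 CPM in AG to 82.4 CPM or below in the tumors. Of 5 leukocyte miRNAs, 3 fell in TI and 4 in TIM, and they summed to 427 to 620 CPM in AG and to at most 348 CPM in a tumor. Of 4 erythroid miRNAs, 0 were called in either comparison. Their sum was 4425 CPM in TI 5, 344 to 2317 CPM in the other TI libraries, 715 to 2471 CPM in AG and 172 to 2605 CPM in TIM. Of 7 epithelial miRNAs, 0 were called in TI and 1 fell in TIM. They summed to 954 CPM in TI 5, 354 to 1952 CPM in the other TI libraries, 1236 to 1762 CPM in AG and 180.1 to 530.0 CPM in TIM. Every listed miRNA had reads in some library. The part of these cell types in the levels of the cluster was not tested.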

How the data were processed

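Small RNA was sequenced from 3 adrenal glands and 15 tumors. Per the labels, RNA was extracted with TRIzol (the study's methods name a Qiagen AllPrep kit for tumor tissue). Reads were trimmed with cutadapt 2.8, aligned to mm10 with Bowtie2 2.3.5.1, counted with featureCounts 2.0.0 and scaled by TMM with edgeR 3.40 (submitters' processing notes). The deposited values are a signal, namely TMM-scaled CPM per mature miRNA. The deposited columns of log2 fold change, p-value and adjusted p-value hold the authors' own comparisons and were not used. In these CPM, 100% of the values were whole multiples of what 1 read is worth (within 0.02 reads), so reads were recovered.

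Members were found by name, and members, lists and tests were chosen with earlier results of these data known. The 726 miRNAs that reached 1 CPM in 3 or more libraries were fitted in limma 3.58.1 (R 4.3.3) on log2(CPM + 1) over all 3 groups, with trend and Benjamini-Hochberg adjustment over all of them, threshold 0.05. edgeR 4.0.16 and DESeq2 1.42.0 on recovered reads were alternatives, and the fits were tested on simulated data. Replicates are separately numbered tumors or glands. The study reports several tumors per mouse among IGF2BP1/MYCN mice, and whether any of the tumors here share a mouse was not established. Depth ranged from 11641696 to 23435621 reads. Values by library were given for the 12 members of highest mean CPM, a set that included miR-467a-5p, miR-467b-5p and miR-669c-5p. Other members that passed a test were named, as were the 5 miRNAs most like the summed level. Hairpin positions and sequences came from RefSeq (GRCm38.p6), of which 8 of 80 members had a sequence, and introns from GENCODE on GRCm39, without conversion between builds. Members sharing a mature sequence were not analysed here.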

Additional observations from a re-analysis of the deposited data

Results flagged for a closer look

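The 12 named members and the summed level were examined for libraries far from the rest of their group, by Dixon's ratio of the gap to the range, in TI and TIM (26 groups of libraries, of which chance flags about 1 in 20). TI 5 was far above the other TI libraries in all 13, with ratios of 0.965 for the summed level (476 CPM), 0.952 and 0.978 for miR-467a-5p and miR-669c-5p, 0.977 for miR-467b-5p, 0.969 for miR-669a-5p, 0.972 for miR-467e-5p, 0.894 for miR-467c-5p, 0.982 for miR-466c-5p, 0.942 for miR-467a-3p, 0.990 for miR-669a-3p, 0.964 for miR-669o-5p, 0.967 for miR-669l-5p and 0.937 for miR-467d-5p. TIM 6 was far above the other TIM libraries in 5, with ratios of 0.561 for the summed level (1509 CPM), 0.594 for miR-467a-5p, 0.603 for miR-467b-5p, 0.543 for miR-467e-5p and 0.611 for miR-466c-5p. The members share libraries and vary together, so these are not separate events.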

How the results depend on the processing

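No paired analysis was possible because no replicate number stands in the column names. A sum over distinct mature sequences was not run, since the sequences of most members were not used here. The number of members lower in TI than in AG (13) was 8 with a pseudocount of 5, 1 in edgeR, 1 in DESeq2, and 28 in either tool without TI 5 (added after the data were seen); leaving out 1 library at a time it ranged from 9 to 18. The number higher in TIM than in AG (4) was 1 with a pseudocount of 5, 1 at 10 CPM or more in 3 libraries, 7 when totals were taken without miR-148a-3p (which also called miR-466f-5p, miR-466q and miR-467d-3p), 2 with only these groups fitted, 1 in edgeR, and without TI 5 8 in edgeR and 10 in DESeq2. Leaving out 1 library at a time it ranged from 0 to 6, with 0 without AG 1, AG 2, AG 3 or TIM 3 and 1 without TIM 4, TIM 6 or TIM 7. The number higher in TIM than in TI (23) was 13 with a pseudocount of 5, 11 at 10 CPM or more and 1 in edgeR, and 17 to 30 leaving out 1 library, a description whose outcome the choice of the cluster fixed. The causes were not tested, except that the filter at 10 CPM left 11 members and 50 reads left 9 hairpins, with 1 in place of 3 higher 3p shares.

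The summed level differed by a mean log2 of -4.17 between TI and AG, 0.73 between TIM and AG and 4.91 between TIM and TI. Leaving out 1 library it ranged from -5 to -3.93, 0.49 to 0.96 and 4.66 to 5.74. Under no scaling did its direction change. miR-669o-5p in TIM against AG, not called (-0.16), turned to 0.15 without the TMM factor, 0.36 without miR-148a-3p in the totals, 0.069 in edgeR, 0.090 in DESeq2, 0.27 and 0.066 in these tools without TI 5, and ranged from -0.36 to 0.032 leaving out 1 library (above 0 without TIM 2). Totals without miR-148a-3p gave all miRNAs a median log2 fold change of 0.31 in place of -0.01 in TI and 0.53 in place of 0.18 in TIM, with 59.7% in place of 47.4% and 66.4% in place of 49.6% of calls higher. Without the TMM factor the medians were -0.14 and 0.41, and the share of higher calls in TIM against TI went from 65.8% to 89.0%. miR-466q was called higher in TI without a filter, without the TMM factor and without miR-148a-3p in the totals. At these depths, levels under about 0.27 CPM are at the limit of 3 reads.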
